A study of Homo sapiens with 8 samples.

Results

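The genes described here encode the proteins of the mitochondrial ribosome, taken as every table entry annotated to exactly 1 gene whose symbol is MRPL (large subunit) or MRPS (small subunit) and a number. They made up 67 of the 18495 entries, here called rows, each of which is 1 transcript cluster of an Affymetrix human exon array. The large subunit contributed 44 rows for 43 genes, MRPL20 having 2 rows, and the small subunit 23 rows for 23 genes. A further 18 rows carried a mitoribosomal symbol together with that of another gene and were not counted as members. As a result, 10 genes (MRPL3, MRPL9, MRPL45, MRPL53, MRPL57, MRPS6, MRPS12, MRPS18A, MRPS18C and MRPS28) were not measured on a row of their own.

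The cells were PNT2, an immortalized human line derived from prostatic epithelium. One group of 4 arrays came from cells given small interfering RNA (siRNA) against both ESRP1 and ESRP2, epithelial RNA-binding proteins that regulate splicing (siESRP). The control group of 4 arrays came from PNT2 cells whose siRNA was directed at green fluorescent protein (siGFP), so all 8 samples were transfected cells of 1 line. The comparison asked which genes changed in level when both splicing factors were depleted. Whether the 4 samples of each group were grown separately is not stated in the labels. The p-values therefore reflect sample-to-sample spread that could be technical.

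Both targets were low in siESRP, and the labels put the knockdown near 80% by quantitative RT-PCR. Their rows fell by 4.2-fold for ESRP1, from 2439 ± 169 to 582 ± 66.9, and by 3.61-fold for the row shared by ESRP2 and NFATC3, from 531 ± 33.4 to 148 ± 27.4 (quantile-normalized intensity, mean ± SD, n = 4 each; limma adjusted p = 6.58e-05 and 0.000336). Median deposited intensity was 233 to 286 per array. The epithelial markers CDH1, EPCAM, KRT8, KRT18 and KRT19 had means from 2137 (CDH1, siGFP) to 6964 (KRT8, siESRP), whereas the leukocyte markers PTPRC, CD3E and LCP1 were under 30. The luminal prostate genes KLK3 and KLK2 had mean intensities of 61.7 and 79.3 in siGFP, and 65.2 and 76.3 in siESRP, so these defining luminal products were low in both groups. Of 20 marker rows examined, 8 passed the test in either direction, as did 20.2% of all rows. Among epithelial markers, CDH1 rose from 2137 to 3042, KRT18 from 4917 to 5991 and KRT19 from 4480.3 to 5234, while the basal keratin KRT14 fell from 765 to 367 (limma adjusted p = 0.00182, 0.00681, 0.0078 and 0.00465). Among mesenchymal markers, VIM rose from 159 to 193 and COL1A1 fell from 252 to 182 (limma adjusted p = 0.0168 and 0.00649). The neuroendocrine gene SCG2 fell from 214 to 69.6, and the endothelial gene CDH5 rose from 241 to 324 (limma adjusted p = 0.0083 and 0.0333). The other endothelial markers, PECAM1 and EMCN, were under 20 in both groups. The part of such cell-type markers in the results was not tested.

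Mitochondria keep their own ribosome to translate the few messenger RNAs of mitochondrial DNA, which encode membrane subunits of the respiratory chain and of ATP synthase. The ribosomal RNAs are made in the organelle, but all of the ribosome's proteins are encoded in the nucleus, made in the cytosol and imported. Many are counterparts of bacterial ribosomal proteins, and the rest were added during the evolution of mitochondria. The large subunit joins amino acids and carries the exit tunnel, and the small subunit reads the messenger RNA.

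To show where these genes start, the 250 bases before the RefSeq transcription start (GRCh38.p14) are printed 5′ to 3′ for members that the results turn on. Capitals mark exact matches, on either strand, to short strings associated with promoter-binding factors: GCATGCGC (NRF1), CCGGAAG or its complement CTTCCGG (ETS family), AAGATGGC (YY1) and CCCCGCCC (SP family). MRPL52 (chr14:22829637-22829886, plus strand) and MRPS18B (chr6:30617590-30617839, plus strand) had the lowest log2 difference of their subunit. MRPL46 (chr15:88467389-88467638, minus strand) fell together with the small-subunit gene MRPS11, which starts 320 bases away on the opposite strand, so its window lies between them. MRPS22 (chr3:139343744-139343993, plus strand) was the member that rose, and MRPL16 (chr11:59810779-59811028, minus strand) had one of the smallest differences.
MRPL52: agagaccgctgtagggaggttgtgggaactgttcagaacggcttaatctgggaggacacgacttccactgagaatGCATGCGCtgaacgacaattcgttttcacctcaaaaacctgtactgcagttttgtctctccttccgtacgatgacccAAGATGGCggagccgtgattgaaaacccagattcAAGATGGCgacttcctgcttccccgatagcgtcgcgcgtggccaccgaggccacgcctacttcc
MRPS18B: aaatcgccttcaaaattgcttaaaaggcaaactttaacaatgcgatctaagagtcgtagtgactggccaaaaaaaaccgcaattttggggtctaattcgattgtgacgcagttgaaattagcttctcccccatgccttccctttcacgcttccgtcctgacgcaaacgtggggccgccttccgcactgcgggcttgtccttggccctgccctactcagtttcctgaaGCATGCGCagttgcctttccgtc
MRPL46: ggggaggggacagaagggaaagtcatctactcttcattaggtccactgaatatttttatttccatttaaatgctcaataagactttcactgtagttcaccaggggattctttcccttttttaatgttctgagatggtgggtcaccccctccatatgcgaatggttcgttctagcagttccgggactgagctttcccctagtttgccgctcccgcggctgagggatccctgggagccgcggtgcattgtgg
MRPS22: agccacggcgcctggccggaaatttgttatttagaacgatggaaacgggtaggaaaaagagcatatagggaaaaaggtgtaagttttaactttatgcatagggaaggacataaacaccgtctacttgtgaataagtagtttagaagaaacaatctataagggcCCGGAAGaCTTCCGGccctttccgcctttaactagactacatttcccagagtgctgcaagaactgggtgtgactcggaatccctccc
MRPL16: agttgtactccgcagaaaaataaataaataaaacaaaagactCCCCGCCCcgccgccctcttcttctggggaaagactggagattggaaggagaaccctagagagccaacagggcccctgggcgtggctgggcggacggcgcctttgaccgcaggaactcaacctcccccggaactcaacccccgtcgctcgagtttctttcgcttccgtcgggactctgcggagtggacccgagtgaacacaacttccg

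In the 250 printed bases of MRPL52 the NRF1 string occurred once and the YY1 string at 2 places, and in the MRPS18B window the NRF1 string occurred once. The MRPS22 window held the ETS string on both strands, 1 base apart, and the MRPL16 window held the SP string. None of the strings lay in the 250 printed bases of MRPL46. In the 50 bases after the start, which are not printed, MRPL46 and MRPS18B held the YY1 string and MRPS22 the ETS string. In MRPL52 and MRPL16 an ETS string spanned the start and is not marked. These matches enter the counts of 300-base windows below. A match is a description of letters and says nothing of binding.

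RefSeq windows of 300 bases (250 before to 50 after the start) were matched for 60 of the 66 member genes. The YY1 string was in 28.3% of them (17 windows), against 4.13% of the 11417 windows of genes with a row of their own on the array and 3.03% of all 27305 windows. The ETS string was in 40.0% (24 windows), against 14.6% and 10.7%. The ETS and YY1 strings can overlap through a shared AAG. Cytosolic ribosomal protein genes, with 51 windows, held the ETS string in 33.3% and the YY1 string in 3.92%. The NRF1 string was in 8.33% of the mitoribosomal windows (5), against 4.26% and 3.27%, the SP string in 40.0%, against 33.6% and 22.9%, and the E-box CACGTG in 6.67%, against 9.03% and 7.43%. Median GC content was 60.8% in the mitoribosomal windows and 63.3% in those of genes with a row of their own.

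The same strings occurred in genes that fell and in genes that did not. Among the 18 windows of genes that fell, 22.2% held the YY1 string and 33.3% the ETS string. Among the 41 windows of genes that did not pass the test, 31.7% held the YY1 string and 41.5% the ETS string. These shares were not tested against each other.

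Mitoribosomal protein genes were mostly lower after depletion of ESRP1 and ESRP2, by modest amounts. In the large subunit 15 rows fell, none rose and 29 did not pass the test. In the small subunit 5 rows fell, 1 rose and 17 did not pass. Over all 18495 rows, 9.31% fell and 10.9% rose (limma on log2(intensity + 1), two-sided, Benjamini-Hochberg adjusted p under 0.05). Among the 11073 rows within the members' own range of mean intensity, 118 to 3780.02, 14.1% fell and 15.4% rose. The share that fell was 34.1% in the large subunit and 21.7% in the small subunit.

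The members also shared a direction beyond those that passed. The log2 difference was below 0 in 38 of 44 large-subunit rows and 20 of 23 small-subunit rows. It was below 0 in 53.0% of all rows and 54.9% of rows of like intensity. Its median was −0.27 in the large subunit (lower and upper quartiles −0.45 and −0.07) and −0.25 in the small subunit (−0.38 and −0.17), against −0.02 over all rows and −0.04 over rows of like intensity. The SD of the differences across rows was 0.24 for the members and 0.39 for rows of like intensity. It was 0.23 for nuclear-encoded oxidative phosphorylation subunits and 0.17 for cytosolic ribosomal proteins, so close spacing was not particular to the members.

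The 4 siESRP values all lay below the 4 siGFP values in 15 large-subunit and 7 small-subunit rows, and all above them in 1 small-subunit row. Among rows of like intensity the groups were apart in this way in 17.8% (lower) and 17.6% (higher), and over all 18495 rows in 2228 (lower) and 2343 (higher). A fall of at least 1.5-fold that passed the test was seen in 6 member rows, 5 of them in the large subunit, against 2.40% of all rows. Most of the falls that passed were thus smaller than 1.5-fold.

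**Figure D1:**
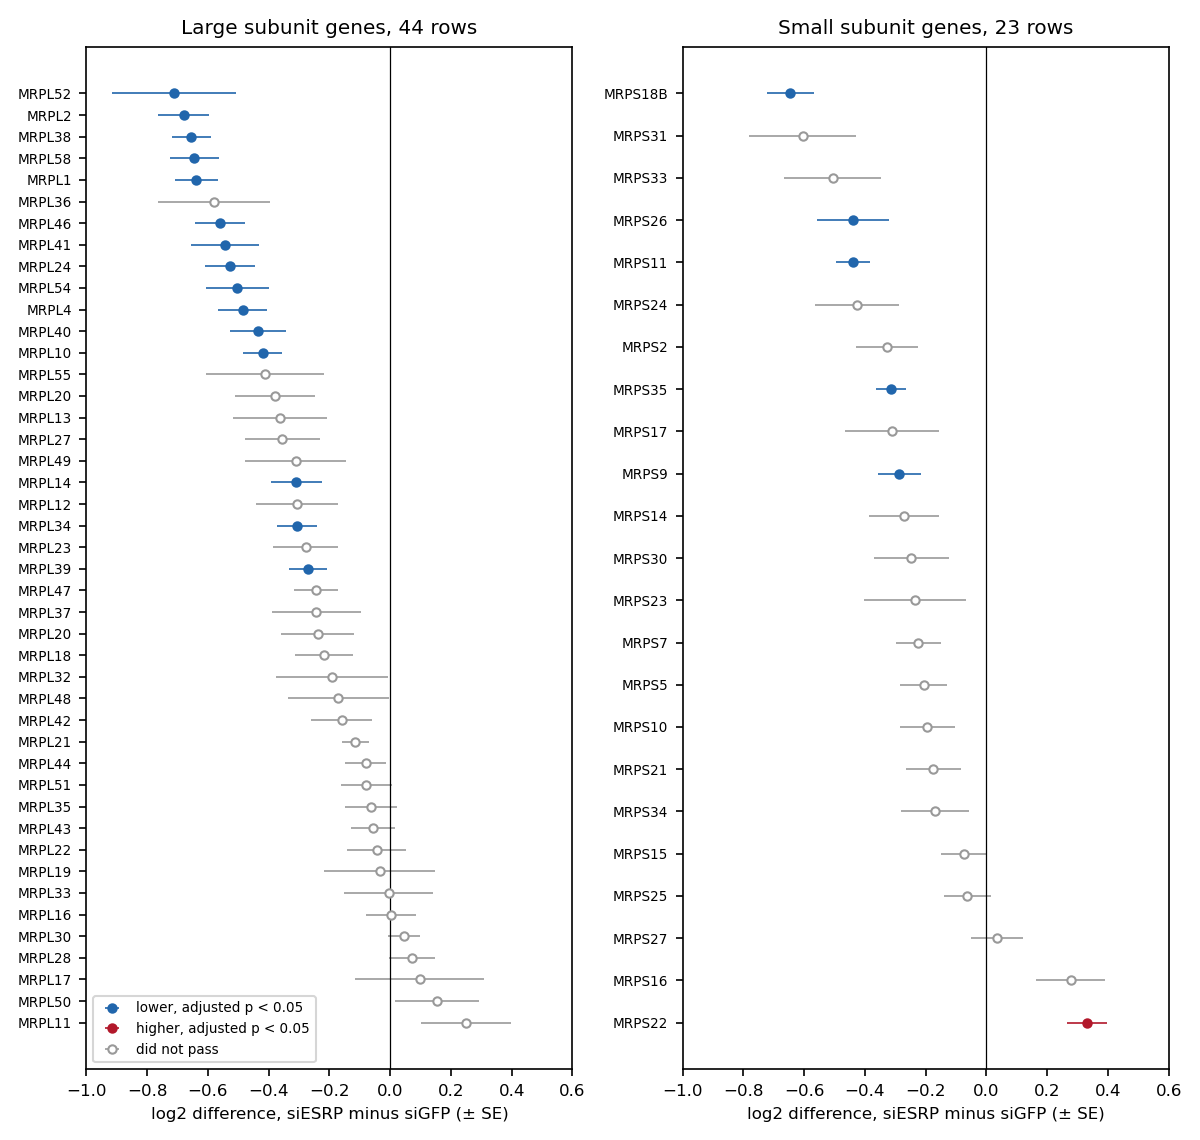
Log2 difference (siESRP minus siGFP, on log2 of quantile-normalized intensity + 1) of each of the 44 large-subunit and 23 small-subunit rows, with its SE. Filled points passed limma at an adjusted p under 0.05: 20 are below 0 and 1, MRPS22, is above 0, and most open points also lie left of 0.

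In the large subunit 28 rows, MRPL55 among them, were assigned a bacterial ribosomal counterpart by a fixed list of symbols. Of these 7 fell (25%), and the 28 rows had a median log2 difference of −0.26. Among rows of like intensity 14.1% fell. MRPL2, which lies near the peptidyl transferase centre, measured 1962, 1796, 1927 and 1631 in siGFP and 1157, 1151, 1016 and 1240.2 in siESRP. The groups were far apart, and the mean fell 1.6-fold from 1829 ± 150.2 to 1141 ± 92.6 (mean ± SD, n = 4 each; log2 difference −0.68 ± 0.08 SE, limma adjusted p = 0.00202). MRPL1, a protein of the mobile L1 stalk beside the tRNA exit site, measured 1616, 1452, 1686 and 1517 in siGFP and 1102, 946, 958 and 1022 in siESRP. Again every siESRP array was below every siGFP array, with a 1.56-fold fall (log2 difference −0.64 ± 0.07 SE, limma adjusted p = 0.00136).

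Of the 5 rows assigned to the tunnel exit 2 fell (MRPL24 and MRPL39), and of the 3 stalk rows 1 fell (MRPL10). Sets of 5 and 3 rows are too small to be read against the 14.1% of rows of like intensity that fell. MRPL24, near the tunnel exit, measured 1866, 1727, 2063 and 1743 in siGFP and 1376, 1205, 1181 and 1372 in siESRP, without overlap (log2 difference −0.53 ± 0.08 SE, limma adjusted p = 0.0053). MRPL4, which lines the tunnel, measured 1549, 1623, 1479 and 1651 and 1091, 1104, 1297 and 1022 in the same order, also without overlap (log2 difference −0.49 ± 0.08 SE, limma adjusted p = 0.00665). MRPL10, the stalk base to which MRPL12 binds, measured 2038, 1741, 1869 and 1782 in siGFP and 1382, 1412, 1297 and 1461 in siESRP (log2 difference −0.42 ± 0.06 SE, limma adjusted p = 0.0049). Its partner MRPL12 had a log2 difference of −0.31 ± 0.13 SE, limma adjusted p = 0.164, and the third stalk member, MRPL11, one of 0.25 ± 0.15 SE, limma adjusted p = 0.299. Neither of the latter passed, and MRPL11 was the large-subunit row with the highest difference.

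MRPL14 and MRPL34 completed the conserved proteins that fell. MRPL14, at the face that meets the small subunit and the site where the assembly factor MALSU1 binds, measured 1523, 1392, 1470.4 and 1309 in siGFP and 1100.4, 1056, 1318 and 1129 in siESRP. It was the called member whose groups overlapped, since siESRP replicate 3 was above siGFP replicate 4 (log2 difference −0.31 ± 0.08 SE, limma adjusted p = 0.0404). MRPL34 measured 1422, 1259, 1196 and 1336 in siGFP and 1062, 1099.5, 1071 and 978 in siESRP, without overlap (log2 difference −0.31 ± 0.07 SE, limma adjusted p = 0.0187). The MRPL14 call was lost when any one of 6 of the 8 arrays was left out (all except siGFP replicate 4 and siESRP replicate 3), with adjusted p up to 0.104. The MRPL34 call was lost without siGFP replicate 4 (adjusted p = 0.0538).

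Among the 16 large-subunit rows to which that list assigned no counterpart, MRPL58 among them, 8 fell (50%). The share among rows of like intensity was 14.1%. The 16 rows had a median log2 difference of −0.29, close to that of the rows with an assigned counterpart. MRPL38, MRPL40, MRPL46 and MRPL52 build the central protuberance, the crest of the large subunit that faces the head of the small one. MRPL38 measured 960.1, 928, 869 and 866 in siGFP and 556, 596, 618 and 530.5 in siESRP, a 1.57-fold fall with tight replicates (log2 difference −0.66 ± 0.06 SE, limma adjusted p = 0.000807). MRPL46 measured 1284, 1168, 1117 and 1336 and 849.9, 921, 796 and 759 in the same order, without overlap (log2 difference −0.56 ± 0.08 SE, limma adjusted p = 0.00433). MRPL40 measured 881, 1119.8, 887 and 1029.9 in siGFP and 726, 778, 669.5 and 712 in siESRP, also without overlap (log2 difference −0.43 ± 0.09 SE, limma adjusted p = 0.0171).

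MRPL52 had the lowest difference of the large subunit, with intensities below the array medians. It measured 199, 138, 144 and 107 in siGFP and 102, 99.2, 79.5 and 72 in siESRP, and its groups were separated by a small gap between siGFP replicate 4 and siESRP replicate 1 (log2 difference −0.71 ± 0.20 SE, limma adjusted p = 0.049). Its call was lost in 7 of 8 leave-outs, the exception being siGFP replicate 4, with adjusted p up to 0.116. The MRPL40 call was lost without siGFP replicate 4 (adjusted p = 0.0501). All 8 rows assigned to the central protuberance were below 0, with a median of −0.42, and 4 of them fell (50%). Of rows of like intensity, 54.9% were below 0 and 14.1% fell. The set of 8 rows is small, and its share was not tested against these.

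The other large-subunit proteins that fell and had no assigned counterpart have varied roles. MRPL58, formerly ICT1, is a peptidyl-tRNA hydrolase built into the large subunit, where it can release peptides from stalled ribosomes. It measured 1309.8, 1039, 1189 and 1243 in siGFP and 809.6, 776, 716 and 747 in siESRP, a 1.56-fold fall without overlap (log2 difference −0.64 ± 0.08 SE, limma adjusted p = 0.00211). MRPL41 measured 609.8, 671, 559.6 and 725 in siGFP and 463, 502, 405 and 388 in siESRP (log2 difference −0.54 ± 0.11 SE, limma adjusted p = 0.015). MRPL54 measured 199, 198, 158 and 176 in siGFP and 119, 140.1, 139 and 116 in siESRP (log2 difference −0.50 ± 0.10 SE, limma adjusted p = 0.0142). The groups did not overlap for either gene.

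MRPL39, a protein related to aminoacyl-tRNA synthetases, had the smallest fall among the large-subunit genes that passed. It measured 2981, 2804, 2754 and 2933 in siGFP and 2499, 2451, 2451 and 2122 in siESRP, where replicate 4 stood below the other 3 (log2 difference −0.27 ± 0.06 SE, limma adjusted p = 0.0246). Its call was lost without siGFP replicate 1 (adjusted p = 0.0629) or siGFP replicate 4 (adjusted p = 0.0668).

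Several large-subunit genes showed almost no difference. MRPL16, close to the tRNA-binding sites, measured 1366, 1378, 1249 and 1448 in siGFP and 1387, 1467, 1184 and 1424 in siESRP (log2 difference 0.00 ± 0.08 SE, limma adjusted p = 1). MRPL33 (−0.00 ± 0.15 SE, limma adjusted p = 1) and MRPL19 (−0.03 ± 0.18 SE, limma adjusted p = 0.938) had larger errors. MRPL19 ran from 1626 to 2998 within siGFP alone, a spread that covered all 4 siESRP arrays. The 29 rows that did not pass ran from −0.58 for MRPL36 to 0.25 for MRPL11. The 2 MRPL20 rows had differences of −0.38 and −0.24 (limma adjusted p = 0.0873 and 0.227), and neither passed.

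**Figure D2:**
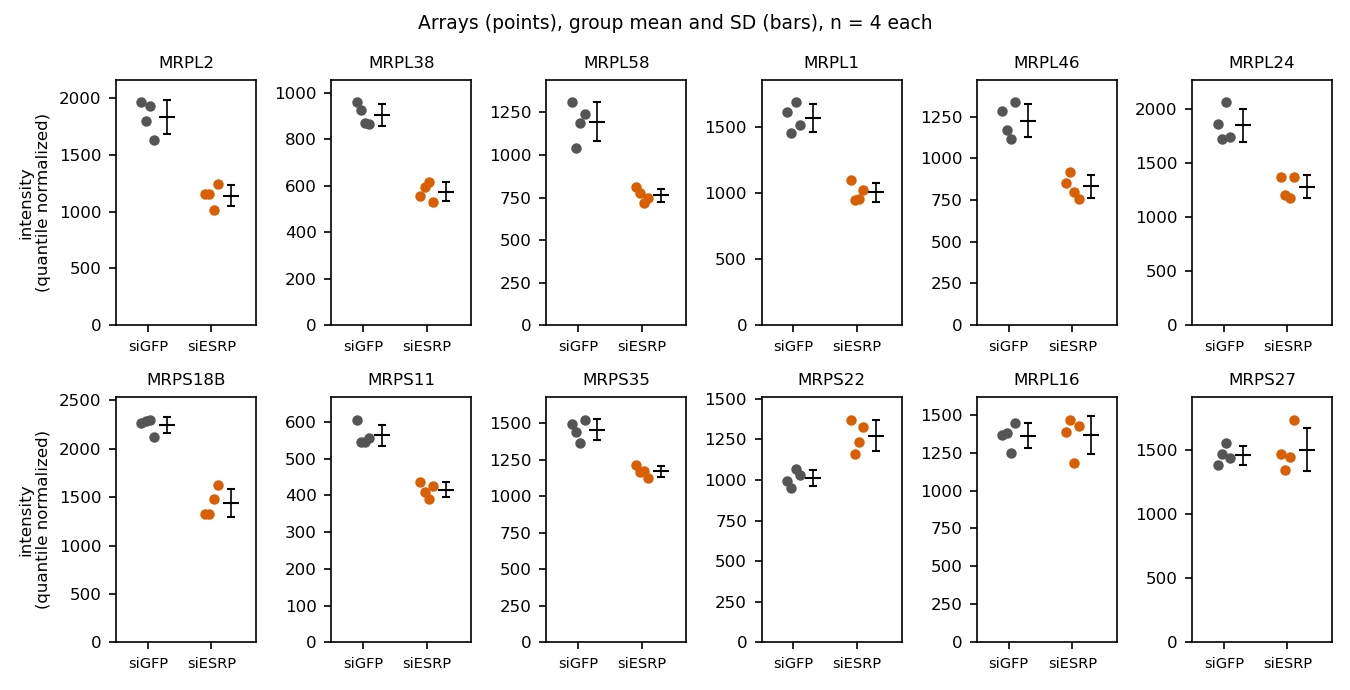
Quantile-normalized intensity of 12 member genes on each of the 4 siGFP and 4 siESRP arrays (points), with the group mean and SD (bars). The siESRP points lie below the siGFP points for the first 9 genes, above them for MRPS22, and among them for MRPL16 and MRPS27.

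In the small subunit the genes that fell were MRPS18B, MRPS26, MRPS11, MRPS35 and MRPS9. MRPS18B, one of 3 human paralogues of bacterial S18, measured 2263, 2286, 2300.0 and 2116 in siGFP and 1324, 1322, 1479 and 1626 in siESRP, a 1.56-fold fall from 2242 ± 84.9 to 1438 ± 146 (log2 difference −0.65 ± 0.08 SE, limma adjusted p = 0.00179). The groups were widely apart, and among the small-subunit rows that passed it was the one with a fall above 1.5-fold. MRPS11, on the platform of the subunit, measured 606, 545, 545 and 556 in siGFP and 435, 409, 389 and 426 in siESRP, without overlap (log2 difference −0.44 ± 0.06 SE, limma adjusted p = 0.00225).

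MRPS9, a protein of the head, measured 808, 847, 855 and 763 in siGFP and 717, 660.5, 601 and 706 in siESRP (log2 difference −0.29 ± 0.07 SE, limma adjusted p = 0.0285). MRPS26 and MRPS35 are mitochondria-specific. MRPS26 measured 664, 769, 644 and 603 in siGFP and 483, 489, 592 and 419 in siESRP, with siESRP replicate 3 just under the lowest control (log2 difference −0.44 ± 0.12 SE, limma adjusted p = 0.0419). MRPS35 measured 1496, 1436, 1361 and 1523 in siGFP and 1216, 1168, 1171 and 1125 in siESRP, a small fall with the tightest siESRP values of the 5 in relation to their mean (log2 difference −0.31 ± 0.05 SE, limma adjusted p = 0.00546). The MRPS26 call was lost in 7 of 8 leave-outs, the exception being siESRP replicate 3, with adjusted p up to 0.0992. The MRPS9 call was lost without siGFP replicate 1, 2 or 3 or siESRP replicate 2, with adjusted p up to 0.0731. The number of small-subunit rows that fell was 3 without siGFP replicate 1, without siGFP replicate 3 or without siESRP replicate 2.

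MRPS22 rose. It is a mitochondria-specific protein of the small subunit, and mutations in its gene cause combined deficiency of the respiratory chain complexes. It measured 996, 952, 1066 and 1029.9 in siGFP and 1373, 1159, 1232 and 1327 in siESRP, so that all siESRP arrays were above all controls. The mean went from 1011 ± 48.7 to 1273 ± 95.9 (mean ± SD, n = 4 each), 1.26-fold higher (log2 difference 0.33 ± 0.07 SE, limma adjusted p = 0.0139). With median scaling in place of quantile normalization the log2 difference was 0.30 and did not pass (limma adjusted p = 0.104), and with the arrays as deposited it was 0.32 (limma adjusted p = 0.229).

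The small-subunit rows nearest 0 were MRPS27, a pentatricopeptide protein (0.03 ± 0.08 SE, limma adjusted p = 0.838), MRPS25 (−0.06 ± 0.08 SE, limma adjusted p = 0.631) and MRPS15 (−0.07 ± 0.07 SE, limma adjusted p = 0.556). MRPS27 measured 1382, 1469, 1559.6 and 1436 in siGFP and 1474, 1345, 1449.6 and 1739.5 in siESRP, with the groups interleaved. Among the other rows that did not pass, the lowest was MRPS31 (−0.60 ± 0.18 SE, limma adjusted p = 0.0526) and the highest MRPS16 (0.28 ± 0.11 SE, limma adjusted p = 0.141). By role, 3 of 13 rows with a bacterial counterpart fell (23.1%, median −0.27). Of 10 mitochondria-specific rows 2 fell (20%) and 1 rose (10%), with a median of −0.24. Among rows of like intensity 14.1% fell and 15.4% rose. Both sets are small, and their shares were not tested against these. MRPS30 (−0.25 ± 0.12 SE, limma adjusted p = 0.221) is counted here by its symbol, although its protein sits in the large subunit.

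Non-overlapping groups and the test mostly picked the same rows. MRPL47, MRPS24 and MRPS7 had non-overlapping groups but adjusted p of 0.0577, 0.0718 and 0.0812 by limma. MRPS24 measured 3425, 2268, 2750.4 and 2424 in siGFP and 2012, 1796, 2226 and 1973 in siESRP, with a wide control spread. For a single gene with non-overlapping groups the exact two-sided permutation p is 0.0286, the smallest that 4 arrays against 4 allow. In the 18 rows shared with other genes, 3 fell (those of MRPS18C with ABRAXAS1, MRPS7 with MIF4GD, and MRPL53 with CCDC142), none rose, and the median difference was −0.21. Among rows of like intensity 14.1% fell and 15.4% rose, so 3 falls in 18 rows were near that share.

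After quantile normalization the mean of each subunit was lower on every siESRP array than on every siGFP array. Relative to the siGFP mean of each row, the mean log2 difference over the large-subunit rows was −0.27, −0.25, −0.24 and −0.33 on siESRP replicates 1 to 4. The siGFP arrays themselves gave −0.01, 0.03, −0.04 and 0.02. The small subunit stood at −0.21, −0.28, −0.23 and −0.25 on the siESRP arrays and at 0.03, −0.05, 0.04 and −0.02 on the siGFP arrays. Between 34 and 38 of the 44 large-subunit rows, and 19 or 20 of the 23 small-subunit rows, were below their siGFP mean on each siESRP array. This separation by array did not hold in the values as deposited. There the large-subunit mean was −0.22 on siGFP replicate 4, below −0.19 on siESRP replicate 1. The small-subunit mean was −0.27 on siGFP replicate 4, below −0.11 and −0.17 on siESRP replicates 1 and 4. After normalization the cytosolic ribosomal protein rows lay at −0.00, 0.04, 0.12 and −0.01 on the 4 siESRP arrays. In bulk RNA a lower level in each cell and a smaller share of cells with a high level cannot be told apart.

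**Figure D3:**
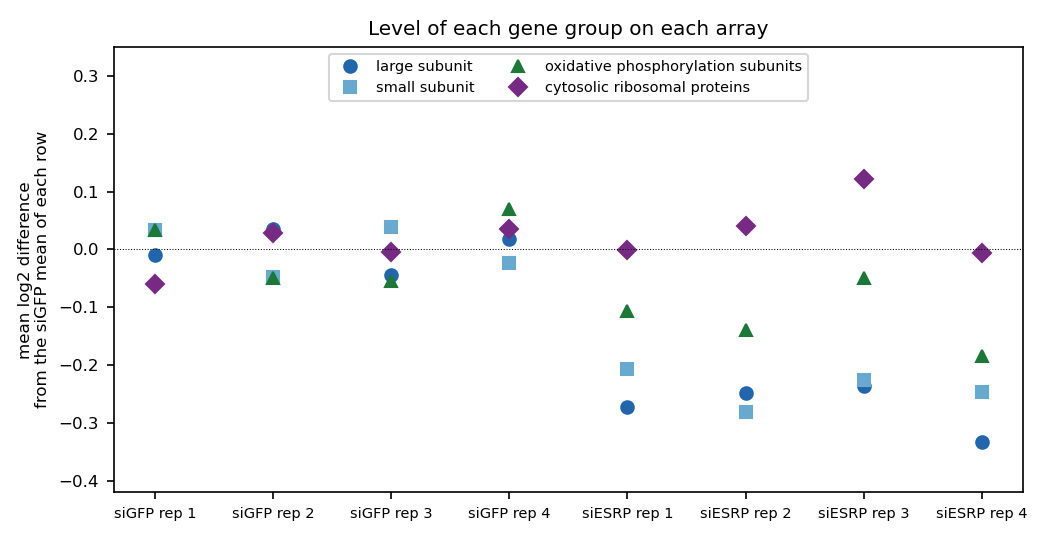
Mean log2 difference, after quantile normalization, from the siGFP mean of each row, per array, for 4 gene groups. Both mitoribosomal subunits lie between −0.33 and −0.21 on the siESRP arrays, below the oxidative phosphorylation subunits (−0.18 to −0.05), while cytosolic ribosomal proteins lie between −0.01 and 0.12.

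Genes that build, service or supply this ribosome were followed as a separate list of 44 genes, of which 12 fell, 3 rose and 29 did not pass (median log2 difference −0.20). The shares were 27.3% lower and 6.82% higher. Over all rows they were 9.31% and 10.9%, and over rows of like intensity 14.1% and 15.4%. Assembly and ribosomal RNA factors held most of the falls, 8 of 19 (42.1%), with 1 rise (5.26%). MTERF4, which works with the methyltransferase NSUN4 in assembly of the large subunit, measured 710.0, 546, 766 and 640.0 in siGFP and 356, 258, 299 and 267 in siESRP. The groups did not overlap, and it had the lowest difference of the list, a 2.25-fold fall (log2 difference −1.17 ± 0.14 SE, limma adjusted p = 0.00179). NSUN4 itself fell as well, from 1066 ± 55.1 to 754 ± 49.6 (mean ± SD, n = 4 each; log2 difference −0.50 ± 0.06 SE, limma adjusted p = 0.00225).

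ERAL1, a GTPase that chaperones the small-subunit ribosomal RNA, fell from 1607 ± 141 to 1178 ± 62.7 (log2 difference −0.45 ± 0.07 SE, limma adjusted p = 0.00682). RBFA, a small-subunit maturation factor, fell from 409 ± 21.8 to 327 ± 19.1 (log2 difference −0.33 ± 0.06 SE, limma adjusted p = 0.0101). GADD45GIP1, a mitoribosomal protein without an MRPL or MRPS symbol, fell from 1327 ± 139.9 to 900.0 ± 51.4 (log2 difference −0.56 ± 0.09 SE, limma adjusted p = 0.00483). POLRMT, the RNA polymerase of mitochondria, fell from 881 ± 47.7 to 624 ± 49.4 (log2 difference −0.50 ± 0.07 SE, limma adjusted p = 0.00342). The other 7 genes of its group, which covers transcription and replication of mitochondrial DNA, did not pass. The share of that group that fell, 12.5%, was near the 14.1% of rows of like intensity.

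Translation factors were mixed, with 2 of 14 lower and 2 higher (median −0.10). These shares, 14.3% in each direction, were near the 14.1% and 15.4% of rows of like intensity. TACO1, a translational activator of the cytochrome oxidase subunit COX1, fell from 1205 ± 52.1 to 924 ± 11.8 (log2 difference −0.38 ± 0.04 SE, limma adjusted p = 0.00135). MTFMT, which formylates the initiator tRNA, measured 629, 639.9, 567 and 640.0 in siGFP and 791, 870.3, 825 and 751 in siESRP, and rose without overlap (log2 difference 0.39 ± 0.06 SE, limma adjusted p = 0.00667). The elongation factor TUFM also rose (0.26 ± 0.06 SE, limma adjusted p = 0.0178), and the recycling factor MRRF fell (−0.31 ± 0.07 SE, limma adjusted p = 0.0183). TUFM and MRRF, outside the rule for named genes, are given to complete these counts.

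Ribosomal proteins of the cytosol did not share the direction of the mitochondrial ones. Of 83 rows for 58 cytosolic ribosomal protein genes, 5 fell (6.02%), 3 rose (3.61%) and 75 did not pass. Their median was 0.03, with 34 rows below 0 (41.0%). Rows of RPS26, RPS28, RPS13, RPL14 and RPL19 fell, and rows of RPS3A and RPS27L rose. The list took in symbols with a final L, RPS27L among them, several rows for some genes, and dim rows such as RPS29 (mean 21.5 in siGFP). Of 64 rows for 63 genes of nuclear-encoded oxidative phosphorylation subunits, 7 fell (10.9%), 1 rose (1.56%) and 56 did not pass. The row that rose was NDUFS3 (0.42 ± 0.09 SE, limma adjusted p = 0.0143). The median of this list was −0.14, with 54 rows below 0 (84.4%). Over all rows 9.31% fell, 10.9% rose and 53.0% were below 0. Among rows within the members' range of mean intensity, 118 to 3780, 14.1% fell and 15.4% rose. Both lists reach beyond that range, with row means from 23.8 to 9043 (cytosolic) and from 5.53 to 7739 (oxidative phosphorylation). For them these are thus not shares of rows of like intensity. The share of oxidative phosphorylation rows that fell was thus near that of all rows. The mitoribosomal median was lower than the medians of both lists, and the oxidative phosphorylation rows shared its direction in most rows. The difference between these lists was not tested.

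**Figure D4:**
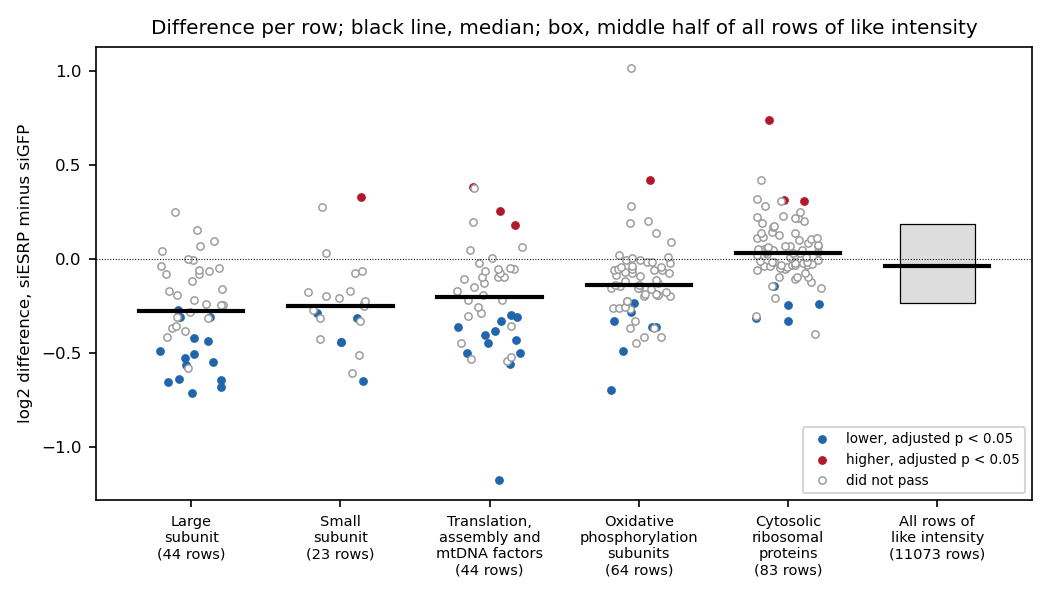
Log2 difference (siESRP minus siGFP) of every row in 5 gene groups, with the median as a black line. The grey box is the quartile range of the 11073 rows of like intensity, taken from the mitoribosomal range. Medians are −0.27 and −0.25 for the mitoribosomal subunits, −0.20 for translation, assembly and mitochondrial DNA expression factors, −0.14 for oxidative phosphorylation subunits, 0.03 for cytosolic ribosomal proteins and −0.04 for rows of like intensity.

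Member genes are spread over 21 chromosomes, and 15 of them start head to head with a protein-coding gene within 1000 bases. For 9 such pairs both genes had a row of their own. MRPL46 and MRPS11, whose starts lie 320 bases apart, both fell, with log2 differences of −0.56 and −0.44. MRPL27 (−0.36 ± 0.12 SE, limma adjusted p = 0.0904) starts 45 bases from EME1, a DNA repair endonuclease subunit, which fell from 404 to 247 (−0.72 ± 0.12 SE, limma adjusted p = 0.00764).

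The remaining neighbours did not pass the test, also where the member fell. PPP1R10, 597 bases from MRPS18B, had a difference of −0.09 ± 0.05 SE (limma adjusted p = 0.296), against −0.65 for MRPS18B. APBA3, 990.0 bases from MRPL54, had −0.08 ± 0.20 SE, against −0.50 for MRPL54. PSMA2, PIERCE1, PTCD2, MITD1 and ZNF189 ran from −0.33 to 0.09. Differences within pairs were not tested.

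**Figure D5:**
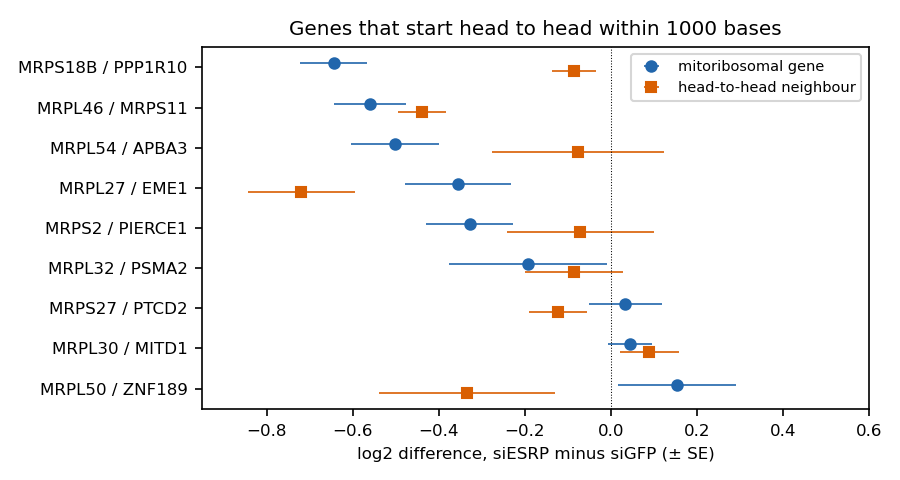
Log2 difference ± SE (siESRP minus siGFP) of 9 mitoribosomal genes and of the protein-coding gene that starts head to head with each within 1000 bases. Both members of the MRPL46 and MRPS11 pair lie below 0, and MRPS18B lies at −0.65 beside PPP1R10 at −0.09.

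These results have bounds set by the scaling. With the arrays as deposited, without normalization, 8 large-subunit rows and 1 small-subunit row fell, while 628 of all rows did. In the large subunit MRPL2 (limma adjusted p = 0.0568), MRPL10 (0.13), MRPL14 (0.244), MRPL24 (0.105), MRPL34 (0.14), MRPL39 (0.211), MRPL52 (0.0722) and MRPL54 (0.0807) then no longer passed. In the small subunit MRPS9 (limma adjusted p = 0.294), MRPS11 (0.0819), MRPS22 (0.229), MRPS26 (0.105) and MRPS35 (0.103) no longer passed. With median scaling MRPS9 did not pass either (limma adjusted p = 0.13). Relative to the median of all rows, the subunit medians went from −0.25 to −0.17 (large) and from −0.22 to −0.16 (small), both with the arrays as deposited and with median scaling. All 21 members that passed kept their direction under each alternative scaling, filter, pseudocount and leave-out, and with array weights. Trended eBayes, the replicate block and one row per gene leave the log2 difference of a row unchanged, so they could not alter its direction. The 21 were also picked for passing in these same data. Many mitoribosomal genes have processed pseudogenes whose transcripts could bind the same probes; their part in the values was not tested.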

How the data were processed

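RNA of 8 PNT2 samples was hybridized to Affymetrix human exon arrays, 1 array per sample, after ribosomal RNA reduction, per the labels' protocols. The table the authors deposited holds linear intensity values, whole numbers with 2.70% to 4.02% of rows per array below 0. How background, probe summary and scaling were done is not given in the sources used here, and the number of arrays limits the precision. Groups came from the sample titles. Because array medians differed, quantile normalization was applied to the linear values. Negative values were then raised to 0, and log2(value + 1) entered limma 3.58.1 in R 4.3.3 (lmFit and eBayes, two-sided, no covariate). Benjamini-Hochberg adjustment ran over all 18495 rows, with a threshold of 0.05. Every adjusted p is from limma, and means ± SD are normalized intensities.

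Rows were named through GEO's annotation of the platform: 14577 rows had 1 symbol, 2849 several and 1069 none. All 66 member genes matched the RefSeq table through Entrez IDs. Promoters are from RefSeq on GRCh38.p14, and no build is named for the array values. Members and lists were chosen with earlier results of these data known. Named members are those that passed, up to 15 per subunit, and the 3 smallest differences of each subunit; up to 8 other pathway genes were named by smallest p. Others were named after their values were seen. The steps were tested on simulated data. Of 100 rows changed 1.5-fold 41 were recovered, and of 100 changed 2-fold 83 were, while 6 unchanged rows were called. A row that did not pass can therefore still have changed by such amounts. Alternatives were other scalings, filters, pseudocounts, eBayes settings, thresholds, a replicate block, one row per gene and leaving out each array.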

Additional observations from a re-analysis of the deposited data

Results flagged for a closer look

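Each group of 4 arrays was checked for 1 array far from the other 3, in all 67 member rows and the 8 named factors. The measure was the gap to the nearest array divided by the range of the group, compared with Dixon's 95% critical value. Of 150 groups, 9 passed, against 7.5 by chance alone, since about 1 in 20 groups does so.

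In the siESRP group, replicate 3 was high for MRPL36 (638 against 366 to 402, ratio 0.869), MRPL55 (246 against 164 to 172, ratio 0.899) and MRPL11 (2089 against 1410.5 to 1510.1, ratio 0.853). Replicate 4 was low for MRPL39 (2122 against 2451 to 2499, ratio 0.873). Replicate 2 was high for MRPL48 (813 against 749 to 756, ratio 0.893), and replicate 1 for MRPL44 (1312 against 1189 to 1209, ratio 0.833).

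In the siGFP group, replicate 1 was high for MRPL12 (1938 against 1539.6 to 1555, ratio 0.962). Replicate 4 was low for MRPS33 (612 against 794 to 817, ratio 0.887), and replicate 3 was low for MTFMT (567 against 629 to 640.0, ratio 0.845).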

How the results depend on the processing

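As reported, 3729 of all rows passed (1722 lower), 15 in the large subunit (15 lower), 6 in the small subunit (5 lower) and 15 in the factor list (12 lower). With arrays as deposited these were 1673 (628 lower), 8 (8), 1 (1) and 6 (5). The small subunit had 10 (9 lower) without the dimmest 25% of rows and 10 (9) with a trended, robust eBayes, and 8 lower with array weights. At an adjusted p under 0.01 the counts were 1808 (693 lower), 8 (8), 3 (3) and 7 (6). With at least a 1.5-fold change they were 1309 (443 lower), 5 (5), 1 (1) and 1 (1). Leaving out 1 array at a time gave 3 to 6 small-subunit rows lower, and 14 of the 21 member calls held in all 8 leave-outs. Of the 21, 8 held with arrays as deposited, 19 with median scaling (not MRPS22 and MRPS9), 20 with array weights (not MRPL52) and 13 with the replicate block. For each array, deviations from its group mean were taken over the 11852 rows with a mean intensity of at least 100. Between same-numbered arrays of the groups these deviations correlated at 0.15, 0.09, −0.27 and −0.02. The numbers were therefore not taken to pair the arrays. The fit with the replicate block called 2292 rows (946 lower), 9 in the large subunit (9 lower) and 3 lower in the small subunit. No member that passed changed direction, although trended eBayes, the replicate block and one row per gene could not alter it. Both subunit medians themselves stayed within 1 SD between arrays under the alternatives run. Relative to the median of all rows they moved by more than that, from −0.25 to −0.17 in the large and from −0.22 to −0.16 in the small subunit, with arrays as deposited and with median scaling. Single rows with intensities near background carry larger errors.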
